A study of Mus musculus with 4 samples.

Results

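Interferon response genes are genes whose transcription is raised when a cell meets type I or type II interferon. A list of 38 such genes was followed in macrophages sorted from mouse mammary glands, by taking every probe set that the array annotation ties to 1 of these genes alone. This found 52 of the 22690 probe sets, for 35 of the 12393 genes measured. Of the other members, Isg15 had only a probe set that the annotation shares with Gm9706, so its values are given apart, and Ifi44 and Xaf1 had no probe set in the annotation used here. A gene with several probe sets is represented by the one with the highest mean over the 4 arrays.

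The study measured 1 RNA sample on 1 array for each of 4 groups. Tumor macrophages were taken from PyMT-driven mammary tumors at an early stage, in mice with 2 copies of Ets2 deleted (titled null) and in mice with 1 copy of Ets2 (titled wildtype). PyMT is a viral oncogene that transforms mammary epithelium. The remodeling macrophages came from mammary glands without tumor, again from mice with 2 copies of Ets2 deleted and, as their control, from wild-type mice. Mice of all 4 groups carried YFP expressed in macrophages, and YFP-positive cells were sorted. Ets2 was deleted in the macrophages, according to the design text. The sources used here give neither the driver of YFP or of the deletion, nor the age, nor how many animals entered a sample. The controls also differ between settings, since 1 keeps a single copy of Ets2 and the other is wild type. The question of the layout is which genes differ with Ets2, a transcription factor of the ETS family, in tumor macrophages and in macrophages of the normal gland.

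Type I interferons, such as interferon beta (Ifnb1), bind the receptor Ifnar1 with Ifnar2, and the kinases Tyk2 and Jak1 then activate STAT proteins that join Irf9 on an element called the interferon-stimulated response element (ISRE). Interferon gamma (Ifng) uses Ifngr1 with Ifngr2 and acts largely through an element called the gamma-activated site. Macrophages both make type I interferon after sensing nucleic acids and answer it, and the proteins induced sense RNA, block viral translation or replication, attack the vacuoles of intracellular microbes, or damp the signal.

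All values are log2 expression values as deposited, from 2.75 to 14.90, and every difference is one log2 value minus another. With 1 array per group there was no replicate check and no test, and "higher" or "lower" means on these arrays only. A gene was counted in a comparison if its value on the brighter array reached that array's median (5.98 to 6.30), and called where the difference was at least 2-fold, that is 1 log2. No error over samples exists. Probe sets that report one gene gave a technical spread, with a median SD over all genes of 0.22 in the tumor Ets2 comparison, 0.16 in the remodeling Ets2 comparison, and 0.18 (Ets2-deficient) and 0.25 (Ets2-expressing) in the comparisons of tumor with remodeling macrophages. Pooled over all genes, the SD was larger, at 0.34, 0.28, 0.32 and 0.41 in that order. Variation among animals, sorts and amplifications lies outside this technical spread, and the number of arrays limits the precision. The Ets2 probe set read 12.67 on the tumor array labelled Ets2-deficient and 12.77 on the Ets2-expressing one, and 12.97 and 13.24 on the remodeling arrays labelled Ets2-deficient and Ets2-expressing. Which exons were deleted is not given in the sources used here, so the probe set may not bear on the labels. Of 11 macrophage markers, 10 lay at or above the array median on each array, and Itgam lay below it on all 4.

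The promoters of the 5 members called in any comparison, and of Ifit1, a close neighbour of Ifit2 and Ifit3, are given here because the differences described here centre on them. They run from 250 bases before to 50 bases after a transcription start in RefSeq (GRCm38.p6), 5′ to 3′ on the gene's strand, and capitals mark the ISRE core searched for on both strands, that is GAAA and GAAA again with any 2 bases between (TTTC and TTTC when read on the other strand). For Ifit2 the table lists 2 starts, and the second in genome order is shown.
Ifit2, chr19:34550838-34551137, plus strand: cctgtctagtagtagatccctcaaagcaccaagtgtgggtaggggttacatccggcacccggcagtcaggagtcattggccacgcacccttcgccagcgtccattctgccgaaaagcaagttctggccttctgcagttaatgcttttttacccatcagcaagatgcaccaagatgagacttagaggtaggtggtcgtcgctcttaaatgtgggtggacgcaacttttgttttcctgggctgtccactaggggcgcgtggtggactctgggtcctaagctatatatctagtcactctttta
Ifit3, chr19:34583279-34583578, plus strand: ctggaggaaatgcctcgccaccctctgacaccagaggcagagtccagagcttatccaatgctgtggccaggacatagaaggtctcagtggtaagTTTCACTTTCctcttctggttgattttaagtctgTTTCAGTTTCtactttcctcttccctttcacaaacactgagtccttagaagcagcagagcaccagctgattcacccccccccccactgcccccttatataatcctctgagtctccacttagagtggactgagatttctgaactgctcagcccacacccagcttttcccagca
Ifit1, chr19:34640639-34640938, plus strand: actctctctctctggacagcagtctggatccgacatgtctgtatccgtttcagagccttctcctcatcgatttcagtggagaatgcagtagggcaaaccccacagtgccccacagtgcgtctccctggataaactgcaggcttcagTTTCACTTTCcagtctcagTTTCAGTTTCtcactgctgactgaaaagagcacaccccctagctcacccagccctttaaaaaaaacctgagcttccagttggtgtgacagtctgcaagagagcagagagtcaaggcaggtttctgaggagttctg
Oasl1, chr5:114922990-114923289, plus strand: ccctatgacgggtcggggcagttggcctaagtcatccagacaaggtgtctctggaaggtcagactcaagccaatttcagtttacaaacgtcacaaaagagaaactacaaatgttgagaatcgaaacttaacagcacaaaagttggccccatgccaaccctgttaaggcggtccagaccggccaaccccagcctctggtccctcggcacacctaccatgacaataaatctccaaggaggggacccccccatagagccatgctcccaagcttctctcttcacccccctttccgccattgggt
Irf7, chr7:141266375-141266674, minus strand: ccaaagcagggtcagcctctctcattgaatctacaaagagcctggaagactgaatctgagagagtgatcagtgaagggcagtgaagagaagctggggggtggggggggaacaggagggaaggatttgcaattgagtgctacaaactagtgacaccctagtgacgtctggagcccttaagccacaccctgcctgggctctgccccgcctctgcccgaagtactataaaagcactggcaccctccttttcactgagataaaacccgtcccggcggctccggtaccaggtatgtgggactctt
Eif2ak2, chr17:78882523-78882822, minus strand: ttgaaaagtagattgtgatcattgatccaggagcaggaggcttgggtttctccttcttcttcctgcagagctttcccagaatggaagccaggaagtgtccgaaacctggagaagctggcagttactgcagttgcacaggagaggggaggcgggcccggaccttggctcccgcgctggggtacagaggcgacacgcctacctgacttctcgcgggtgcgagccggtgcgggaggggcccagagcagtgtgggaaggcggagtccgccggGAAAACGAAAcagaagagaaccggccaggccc
Ifit3 and Ifit1 each held 2 ISRE cores before the start, with their first base at -156 and -122 from the start in Ifit3 and at -104 and -85 in Ifit1. In Eif2ak2 the core lay at 19, after the start. These letters were not found in the windows of Ifit2, Oasl1 and Irf7. Of the 28 measured members with a promoter window, 13 (46.4%) held the ISRE core, against 3.84% of the 9887 measured genes with a window and 3.44% of all 32851 windows. The core of the gamma-activated site, TTCNNNGAA, which reads the same on both strands, lay in the windows of 10 members (35.7%), against 8.45% of measured genes with a window and 8.30% of all windows. Members were chosen as interferon-induced genes, so this share is a description of the list. In the tumor Ets2 comparison described next, the 13 members with the ISRE core had a median of -0.00, with 7 below 0, and the 15 members with a window and no core had a median of -0.27, with 12 below 0. In tumor over remodeling macrophages on the Ets2-expressing arrays these medians were 0.12 and 0.43. They were 0.06 and 0.13 in the remodeling Ets2 comparison, and -0.16 and -0.02 in tumor over remodeling with the label Ets2-deficient. Only the exact letters were searched for, so a site that departs from them counts as no core.

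In tumor macrophages, most interferon response genes read a little lower with the label Ets2-deficient. Of 35 members, 25 (71.4%) lay below 0 and 10 above, against 48.0% and 49.8% of all genes, and their median was -0.27 against 0.00 for all genes. The median stayed between -0.35 and -0.22 under the other scalings and probe set rules tried. None of the 32 members bright enough to count was called, where 2.23% of counted genes were called higher and 0.761% lower. At 1.5-fold, 6 members were lower and 1 was higher, against 5.99% and 9.27% of counted genes.

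The members with the largest differences in tumor macrophages spanned the sensors, the IFIT family and the transcription factors. Dhx58 encodes LGP2, a helicase that tunes RNA sensing, and read 6.10 on the tumor array labelled Ets2-deficient and 7.02 on the Ets2-expressing one, a difference of -0.92. Its remodeling values were 6.12 (Ets2-deficient) and 6.18 (Ets2-expressing), so the tumor Ets2-expressing array stood alone as the high one. Both other Dhx58 probe sets were dim on every array and differed by -0.07 and 0.24 in tumor.
Ifit3, a tetratricopeptide-repeat protein of the antiviral IFIT family, read 7.66 on the tumor array labelled Ets2-deficient and 8.38 on the Ets2-expressing one (-0.72). Ifit2 of the same family read 7.53 and 8.17 in that order (-0.64). Both had 1 probe set, so neither has a technical spread of its own.
Irf1, a transcription factor that binds ISRE-like sites, read 10.08 on the tumor array labelled Ets2-deficient and 10.71 on the Ets2-expressing one (-0.63). Usp18, which strips the ubiquitin-like protein ISG15 from its targets and damps receptor signalling, read 7.49 and 8.09 (-0.60). Sp100, a component of nuclear bodies, read 8.49 and 9.07 (-0.58), and Tor3a, of the torsin ATPase family, differed by -0.59 in its used probe set and -0.26 in the other. Eif2ak2, which encodes the double-stranded RNA-activated kinase PKR, ran the other way, at 8.32 on the tumor array labelled Ets2-deficient and 7.56 on the Ets2-expressing one (0.76), and its second probe set gave 0.60. It was the 1 member higher at 1.5-fold.

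By role, the tumor difference was below 0 for 8 of the 9 effectors that act on RNA or nucleotides (median -0.27). It was below 0 for 5 of 6 guanylate-binding and immunity-related GTPases (median -0.13), but for 1 of 4 sensors (median 0.21). The other sensors above 0 beside Eif2ak2 were Ifih1 (0.16), which encodes the RNA sensor MDA5, and Zbp1 (0.27), a sensor of Z-form nucleic acids whose dimmer probe set gave -0.43. Rsad2, whose product viperin makes a chain-terminating nucleotide, differed by -0.54, and its 2 other probe sets by -0.90 and -0.28. Cmpk2, a mitochondrial nucleotide kinase encoded next to Rsad2, differed by -0.42. Samhd1, which breaks down deoxynucleotides, had 4 probe sets, all below 0, between -0.31 and -0.04. Among the GTPases, which act on the vacuoles of intracellular microbes, Irgm1 differed by -0.47 and Iigp1 by -0.28, while Igtp (-0.00) and Ifi47 (-0.04) were level. Bst2, or tetherin, which holds budding virus at the cell surface, differed by -0.38, and the ubiquitin ligase Trim25 by -0.42. Of the other transcription factors, Irf9 (0.02), which joins Stat2 on the ISRE, Irf8 (-0.09) and Irf7 (-0.30) lay near or below 0, and Stat2 lay at 0.33. Lgals3bp, a secreted glycoprotein, differed by 0.23. The probe set shared by Isg15, the ubiquitin-like protein, and Gm9706 read 7.46 on the tumor array labelled Ets2-deficient and 8.10 on the Ets2-expressing one (-0.65).

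In remodeling macrophages more members lay above 0 than below it, as did all genes by a smaller margin. Oasl1 had the largest difference, below 0. Of 35 members, 22 (62.9%) lay above 0 and 13 below, against 54.2% and 43.0% of all genes, with a median of 0.19 against 0.04 for all genes. Arrays were also centred on their medians or on the hybridization controls, control RNAs added to every sample. This moved the median of all genes to 0.23 and 0.24 and that of the members to 0.38 and 0.39. Centring shifts every gene alike, so the members necessarily lay 0.15 above all genes before and after it. Of 31 members bright enough to count, 1 was called lower, where 5.17% of counted genes were, and 0 were called higher, where 1.31% were. At 1.5-fold, 4 were higher and 2 lower, where 6.53% and 9.73% of counted genes were.

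Oasl1, a 2'-5' oligoadenylate synthetase-like protein that in mouse restrains translation of the Irf7 message, was the member called lower. It read 9.28 on the remodeling array labelled Ets2-deficient and 10.64 on the Ets2-expressing one, a difference of -1.36. In tumor macrophages it read 9.05 (Ets2-deficient) and 9.32 (Ets2-expressing), so 3 arrays were close together and the remodeling Ets2-expressing array stood above them. Its paralog Oasl2, encoded nearby on chromosome 5, did not share this: it read 9.11 (Ets2-deficient) and 8.73 (Ets2-expressing) in remodeling macrophages, a difference of 0.39. Each of the pair had 1 probe set. Ifi35, an interferon-induced leucine zipper protein, read 6.30 on the remodeling array labelled Ets2-deficient and 7.14 on the Ets2-expressing one (-0.84).

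Ifit3 and Ifit2 were the members with the largest higher differences in remodeling macrophages. Ifit3 read 8.24 on the array labelled Ets2-deficient and 7.33 on the Ets2-expressing one (0.91), and Ifit2 read 7.90 and 7.01 (0.89). After either centring both passed 2-fold, at up to 1.11 and 1.09. Irf8, a transcription factor of macrophage and dendritic cell development, read 9.69 on the array labelled Ets2-deficient and 8.89 on the Ets2-expressing one (0.80), and its second probe set gave 0.49. Mx1, a dynamin-like GTPase that blocks influenza virus, differed by 0.76, and Iigp1 by 0.50 and 0.65 in its 2 probe sets. Among those nearly level were Samhd1 (0.00), Stat2 (0.06, and 0.59 in a dim probe set) and Irf9 (0.09). Rsad2 was level in the probe set that represents it (-0.00), while its others gave -0.33 and, between dim values, -0.75. The shared Isg15 probe set read 7.60 on the array labelled Ets2-deficient and 7.89 on the Ets2-expressing one (-0.29).

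**Figure D1:**
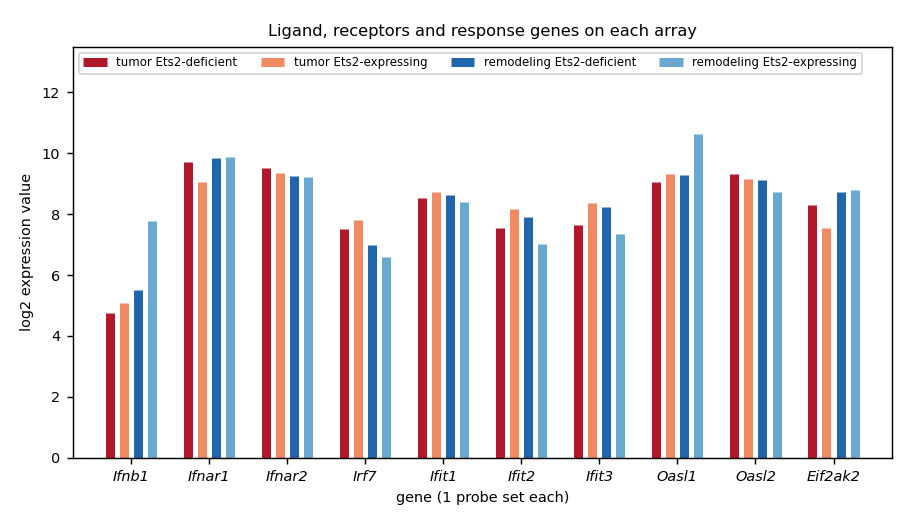
Log2 expression values (vertical axis, starting at 0) of the ligand Ifnb1, its receptors Ifnar1 and Ifnar2 and 7 interferon response genes, by gene (horizontal axis), with 1 bar per array and no error bars because each group has 1 array. Ifnb1 and Oasl1 were highest on the remodeling Ets2-expressing array (7.77 and 10.64), the array on which Ifit2 (7.01), Ifit3 (7.33) and Irf7 (6.58) were lowest.

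Setting both Ets2 differences side by side, 16 of 35 members lay below 0 in tumor and above 0 in remodeling macrophages, where 25.0% of all genes did. A further 9 lay below 0 in both, 6 above 0 in both and 4 above 0 in tumor alone. Across the 35 members the 2 differences, which have no array in common, had a Pearson correlation of -0.02 and a Spearman correlation of 0.03, against 0.03 and 0.06 across all genes. The tumor difference minus the remodeling difference, a value with no error, was below 0 for 26 of 35 members and above 0 for 9, against 52.3% and 47.3% of all genes, with a median of -0.33 against -0.03. At 1 log2 it was lower for Ifit2 (-1.53) and Ifit3 (-1.63) and higher for Oasl1 (1.09), where 2.94% of counted genes were lower and 8.50% higher. Oasl1 no longer reached 1 log2 once arrays were centred, by either their medians or the hybridization controls.

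**Figure D2:**
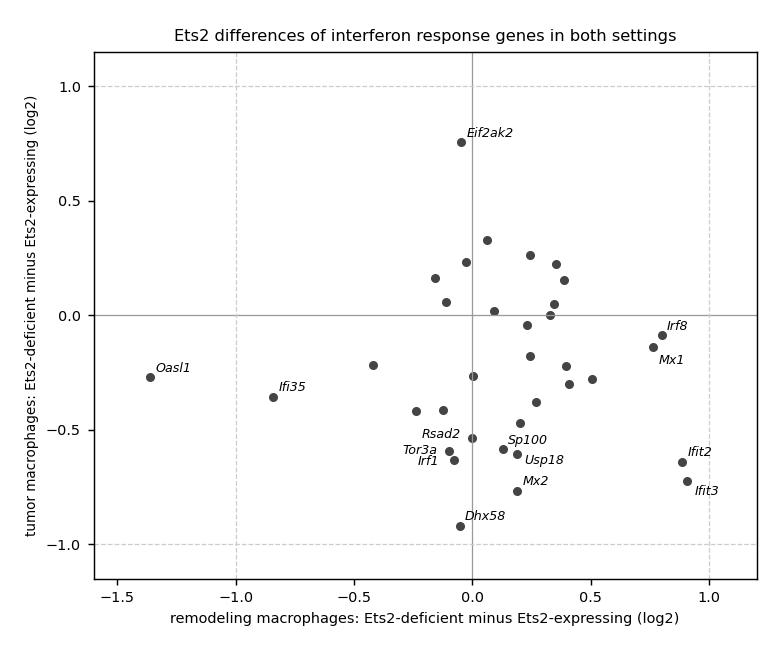
Each point is 1 of 35 interferon response genes, with the Ets2-deficient minus Ets2-expressing difference (log2) in remodeling macrophages on the horizontal axis and in tumor macrophages on the vertical axis. Dashed lines mark 1 log2. Ifit2 and Ifit3 lie at the lower right (-0.64 and 0.89, -0.72 and 0.91) and Oasl1 at the far left (-1.36).

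Between the 2 settings, members were mostly higher in tumor than in remodeling macrophages on the Ets2-expressing arrays and balanced on the arrays labelled Ets2-deficient. On the Ets2-expressing arrays 29 of 35 members (82.9%) lay above 0 and 6 below, against 56.6% and 41.3% of all genes, with a median of 0.32 against 0.07. Of 32 members counted, 3 were called higher and 2 lower, where 6.18% and 5.20% of counted genes were. At 1.5-fold 8 members were higher, where 16.9% of counted genes were, and 2 were lower, where 942 of 7253 were. With the label Ets2-deficient, 15 members lay above 0 and 20 below, where 51.0% and 45.7% of all genes did, with medians of -0.03 for the members and 0.01 for all genes. Centring on the array medians moved both, to -0.35 and -0.31. None of the 31 members counted there was called, against 7.61% of counted genes called higher and 1.61% lower. At 1.5-fold 1 member was higher and 0 were lower, where 15.9% and 7.76% of counted genes were. These comparisons use the same arrays as the Ets2 comparisons, so they restate the same 4 values per gene.

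Irf7, the factor that drives most interferon alpha genes, had the largest higher difference of tumor over remodeling on the Ets2-expressing arrays, at 7.81 in tumor and 6.58 in remodeling macrophages (1.23, or 2.34-fold). Its values on the arrays labelled Ets2-deficient were 7.51 in tumor and 6.98 in remodeling macrophages (0.52), so both tumor arrays lay above both remodeling arrays. Ifit2 (1.16, 2.23-fold) and Ifit3 (1.05, 2.07-fold) were the other members called higher, with differences of -0.37 and -0.58 on the arrays labelled Ets2-deficient. Ifit3 fell short of 2-fold (0.97) after centring on the hybridization controls, and none of these 3 reached the 75th percentile of the brighter array.
Irf8 (0.86, and 0.81 in its second probe set) and Dhx58 (0.84) were higher by more than 1.5-fold. Iigp1 had 1.16 in 1 probe set and 0.84 in the brighter one that represents it. All 6 guanylate-binding and immunity-related GTPases measured lay above 0 on the Ets2-expressing arrays, between 0.31 (Gbp3) and 0.84. Gbp2, a guanylate-binding protein, was higher in tumor on both pairs of arrays. It read 8.89 in tumor and 8.35 in remodeling macrophages with the label Ets2-deficient, and 9.11 and 8.77 on the Ets2-expressing arrays, with differences of 0.54 and 0.34. Ifi35 had the largest difference on the arrays labelled Ets2-deficient (0.73, at 7.04 in tumor and 6.30 in remodeling macrophages).

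The lower members on the Ets2-expressing arrays were Oasl1, at 9.32 in tumor and 10.64 in remodeling macrophages (-1.33, 2.51-fold), and Eif2ak2, at 7.56 and 8.78 (-1.22, 2.33-fold). The Oasl1 difference was -0.24 on the arrays labelled Ets2-deficient. The Eif2ak2 call rested on 1 of its 2 probe sets, since the other, nearly as bright, differed by -0.19, and their SD of 0.73 compared with a median SD of 0.25 over all genes. With the mean of its probe sets the difference was -0.70, which is not a call. On the arrays labelled Ets2-deficient no member passed 2-fold. There Ifit3 (-0.58), Sp100 (-0.56, at 8.49 in tumor and 9.05 in remodeling macrophages) and Usp18 (-0.53, at 7.49 and 8.02) were the lowest.

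**Figure D3:**
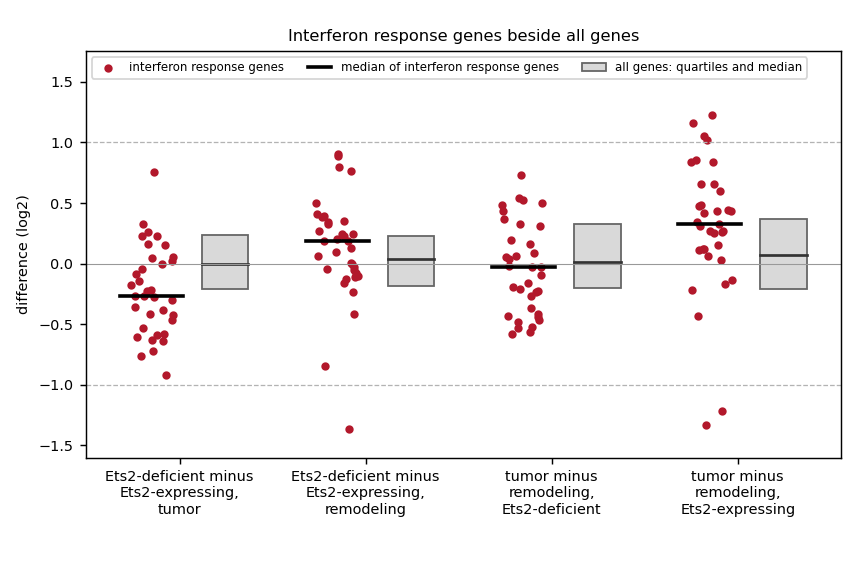
Differences (log2, vertical axis) of 35 interferon response genes, 1 point each with a bar at their median, beside the quartiles and median of 12393 genes (grey boxes), in each of 4 comparisons named on the horizontal axis. Points are spread sideways for legibility and dashed lines mark 1 log2. The member medians were -0.27, 0.19, -0.03 and 0.32 from left to right, and those of all genes 0.00, 0.04, 0.01 and 0.07.

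Seen over the 4 arrays, 21 of 35 members had their highest value on the tumor Ets2-expressing array, where 25.7% of all genes did. After centring on the array median the number was 13 (18.5% of all genes) and after centring on the hybridization controls 10 (14.6%), so it depended on the scaling. As deposited, the tumor Ets2-deficient array was the highest for 6 members (28.1% of all genes), the remodeling Ets2-deficient array for 6 (20.9%) and the remodeling Ets2-expressing array for 2 (22.0%). The lowest value was on the remodeling Ets2-expressing array for 16 members (33.1% of all genes), on the tumor Ets2-deficient array for 9 (22.6%), on the remodeling Ets2-deficient array for 6 (21.5%) and on the tumor Ets2-expressing array for 4 (20.5%). Members differed in how much they varied: the range over 4 arrays went from 0.23 for Irf9 and for Ifitm3, which blocks virus entry at endosomes, to 1.23 for Irf7 and 1.60 for Oasl1. Adar, Mx2 and Socs1 were too dim to count in any comparison. Adar edits adenosines in double-stranded RNA, Mx2 is a relative of Mx1 and Socs1 inhibits JAK kinases. Each was below the 25th percentile (4.27 to 4.32) of at least 1 array, so their differences rest on dim values.

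Genes that neighbour each other had like differences in some cases and not in others. Ifit2 and Ifit3, adjacent on chromosome 19, had close differences in every comparison, farthest apart (-0.37 and -0.58) in tumor over remodeling with the label Ets2-deficient. Ifit1, 4 table entries further on and with 2 ISRE cores like Ifit3, differed by -0.18 in tumor and 0.24 in remodeling macrophages. Its values were 8.54 (tumor, Ets2-deficient), 8.72 (tumor, Ets2-expressing), 8.64 (remodeling, Ets2-deficient) and 8.40 (remodeling, Ets2-expressing), in the same order as those of Ifit2 and Ifit3, over a range of 0.32 where theirs were 1.16 and 1.05. Rsad2 and Cmpk2, adjacent on chromosome 12, had close Ets2 differences in the probe sets that represent them (-0.54 and -0.42 in tumor, -0.00 and -0.12 in remodeling). In tumor over remodeling macrophages labelled Ets2-deficient, these probe sets gave -0.47 and 0.37. Cmpk2 was too dim to count there and in the remodeling Ets2 comparison. Its other, dimmer probe set gave -0.44 in tumor over remodeling with that label, so a parting of the pair is not established. Oasl2 and Oasl1 parted in remodeling macrophages by over 1 log2.

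**Figure D4:**
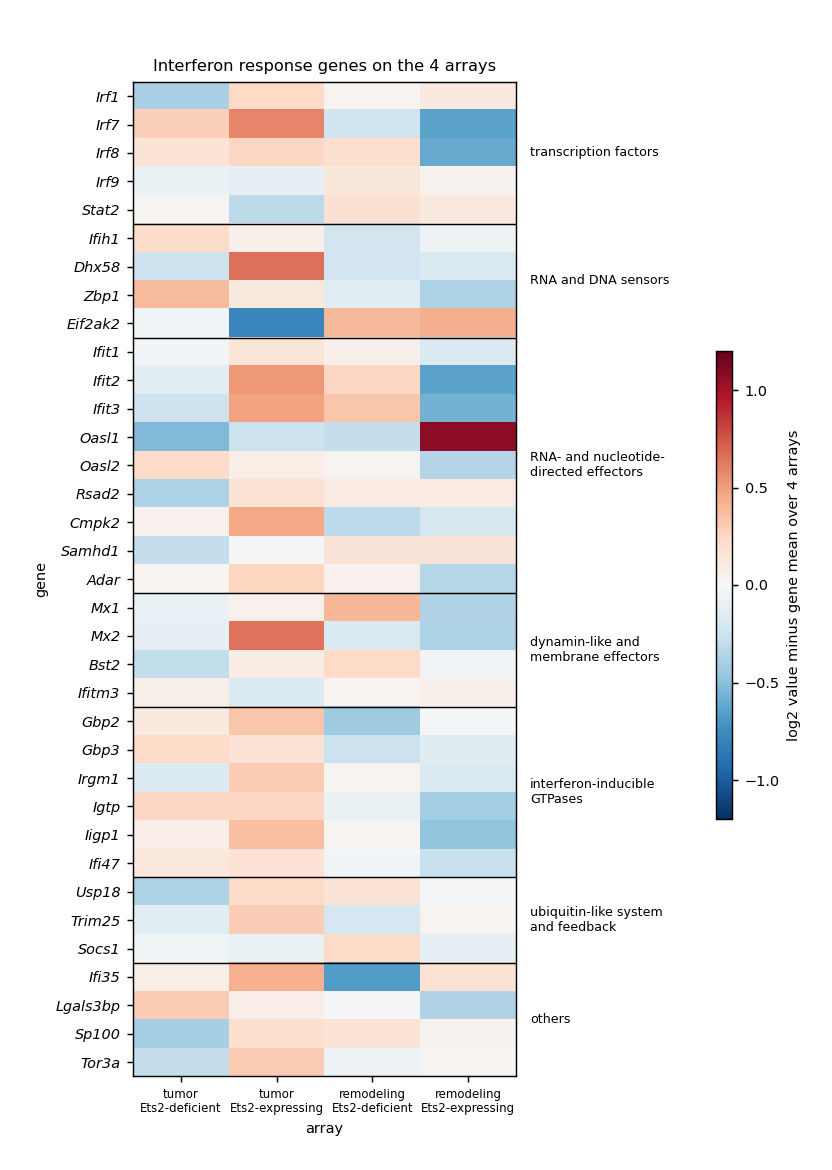
Each row is 1 of 35 interferon response genes, grouped by role, and each column 1 array; colour gives the log2 value minus that gene's mean over the 4 arrays, red above and blue below. Irf7, Ifit2 and Ifit3 are red on the tumor Ets2-expressing array and blue on the remodeling Ets2-expressing array, and Oasl1 is red on the remodeling Ets2-expressing array alone, at 10.64.

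Upstream of these genes, the interferon beta gene itself was bright on 1 array. Ifnb1 read 4.76 on the tumor array labelled Ets2-deficient and 5.07 on the Ets2-expressing one, a difference of -0.32 between dim values. In remodeling macrophages it read 5.52 on the array labelled Ets2-deficient and 7.77 on the Ets2-expressing one, a difference of -2.24 (4.74-fold). Between the Ets2-expressing arrays the difference was -2.69. The brighter value came from the array on which Oasl1 was highest and on which Ifit2, Ifit3 and Irf7 were lowest. The 6 probe sets of single interferon alpha genes lay between 3.76 and 4.76 on every array, and Ifng between 3.88 and 4.48, all below the array medians. Ifnz, an interferon zeta gene, read 6.57 on the remodeling array labelled Ets2-deficient and 4.91 on the Ets2-expressing one (1.66), and 5.48 and 6.05 in tumor macrophages labelled Ets2-deficient and Ets2-expressing (-0.58). It was also lower in tumor over remodeling with the label Ets2-deficient (-1.09).

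Receptors and kinases differed less, and none was called in the probe set that represents it. Ifnar1 read 9.73 on the tumor array labelled Ets2-deficient and 9.06 on the Ets2-expressing one (0.66), and 9.84 and 9.89 on the remodeling arrays in that order (-0.05). Ifnar2 differed by 0.16 in tumor and 0.04 in remodeling macrophages, with a dimmer probe set at -0.25 and -1.02. Ifngr1 differed by -0.30 and -0.13 and Ifngr2 by 0.23 and -0.54, in tumor and remodeling macrophages. Differences of the kinases were -0.18 and -0.28 for Jak1 (0.36 and -0.02, and 0.68 and 0.14, in its other probe sets), 0.05 and -0.14 for Jak2 and -0.13 and 0.39 for Tyk2. Of 95 other interferon pathway genes listed, 69 were measured. In tumor macrophages 56 were bright enough to count, of which 1 was called higher and 1 lower, where 2.23% and 0.761% of all counted genes were. In remodeling macrophages 59 were counted, 2 called higher and 1 lower, where 1.31% and 5.17% were. In tumor over remodeling macrophages 1 was called higher and 1 lower of 58 counted with the label Ets2-deficient (7.61% and 1.61% of all counted genes), and 1 higher and 2 lower of 57 on the Ets2-expressing arrays (6.18% and 5.20%). These few calls do not set the list apart from all genes. Their median Ets2 differences were -0.09 in tumor and 0.04 in remodeling macrophages, where those of all genes were 0.00 and 0.04. Of the 11 upstream factors and sensors in that list 10 lay below 0 in tumor and 9 above 0 in remodeling macrophages (medians -0.17 and 0.13). Of all genes 48.0% and 54.2% did. Other parts of the list were mixed. Of 5 receptors 3 lay above 0 in tumor and 4 below 0 in remodeling macrophages. Of 3 kinases 2 lay below 0 in tumor and 2 in remodeling macrophages, and of 4 feedback genes 2 and 3 did. Of 37 other induced genes 22 lay below 0 in tumor and 21 above 0 in remodeling macrophages, the directions of most upstream factors by smaller margins.

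Among other induced genes, Ifitm1, a relative of Ifitm3, had the largest difference in tumor macrophages. It read 9.81 on the array labelled Ets2-deficient and 7.78 on the Ets2-expressing one (2.03, 4.07-fold), and 7.90 and 8.79 in remodeling macrophages labelled Ets2-deficient and Ets2-expressing (-0.89). It was also called higher in tumor over remodeling macrophages with the label Ets2-deficient (1.90) and lower with Ets2-expressing (-1.01). Ifitm3 itself differed by 0.23 and -0.03. Ifi204, of the DNA-sensing PYHIN family, read 8.50 on the tumor array labelled Ets2-deficient and 9.51 on the Ets2-expressing one (-1.01). Oas1b, an oligoadenylate synthetase family member, was higher in remodeling macrophages with the label Ets2-deficient (1.07, at 6.45 and 5.38). The helicase gene Ddx60 was called higher in tumor over remodeling on the Ets2-expressing arrays (1.16, at 7.07 and 5.91).

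Markers of other cells differed across the same arrays, and their part in these differences was not tested. In sorted bulk samples, fewer cells of a type and less RNA per cell cannot be told apart. Of 5 B cell markers, 4 lay below 0 in the tumor Ets2 comparison (median -0.38) and all 5 above 0 in the remodeling one (median 0.73). All 5 also lay above 0 in tumor over remodeling on the Ets2-expressing arrays (median 0.94). In these 3 comparisons most members had the same directions. In tumor over remodeling with the label Ets2-deficient, 3 B cell markers lay above 0 and 2 below (median 0.22), where 20 of 35 members lay below 0. B cell marker medians were 8.18 (tumor, Ets2-deficient), 8.58 (tumor, Ets2-expressing), 8.62 (remodeling, Ets2-deficient) and 7.60 (remodeling, Ets2-expressing). Of 6 markers of plasmacytoid dendritic cells, which make much interferon alpha, 5 lay below 0 in the tumor and 6 above 0 in the remodeling Ets2 comparison (medians -0.12 and 0.44). In tumor over remodeling macrophages all 6 lay below 0 with the label Ets2-deficient (median -0.44), and 3 lay above and 3 below 0 on the Ets2-expressing arrays. Of 10 T and NK cell markers, 6 lay below 0 in the tumor and 7 below 0 in the remodeling Ets2 comparison (medians -0.05 and -0.04), and 8 and 7 lay above 0 in tumor over remodeling macrophages labelled Ets2-deficient and Ets2-expressing (medians 0.57 and 0.42). Neutrophil markers ran the other way, with 7 of 7 above 0 in tumor (median 1.07) and 5 of 7 below 0 in remodeling macrophages (median -0.63). All 7 fibroblast markers were lower past 2-fold in remodeling macrophages labelled Ets2-deficient (median -2.14), where Ifnb1 and Oasl1 were lower too, and 5 were lower past 2-fold in tumor over remodeling on the Ets2-expressing arrays, as both genes were. Fibroblast marker medians were 9.50 (tumor, Ets2-deficient), 9.79 (tumor, Ets2-expressing), 9.24 (remodeling, Ets2-deficient) and 11.85 (remodeling, Ets2-expressing). All 7 lay at or above the array median on each array. Of 6 endothelial markers, mostly dim, 2 were also lower past 2-fold in both of these comparisons. These were Tek (-2.76 and -1.48) and Ramp2 (-2.28 and -1.18). The endothelial medians there were -0.05 and -0.16. All 8 mammary epithelial markers lay above 0 in the tumor Ets2 comparison (median 0.82) and in tumor over remodeling with the labels Ets2-deficient (median 5.42) and Ets2-expressing (median 2.97), and 7 of 8 lay below 0 in the remodeling Ets2 comparison (median -1.03). Of 6 dendritic cell markers, 4 lay below 0 in the tumor and 4 above 0 in the remodeling Ets2 comparison (medians -0.28 and 0.07). Of 3 monocyte markers, 2 lay below 0 in the tumor and all 3 above 0 in the remodeling one (medians -0.13 and 0.37). In tumor over remodeling on the Ets2-expressing arrays the dendritic cell median was 0.28 and the monocyte median -0.02. Macrophage markers had medians of -0.08 in tumor and -0.10 in remodeling macrophages. The difference between 3′ and 5′ control probe sets, larger where RNA is shorter, was for Actb 3.54 (tumor, Ets2-deficient), 3.30 (tumor, Ets2-expressing), 2.96 (remodeling, Ets2-deficient) and 2.72 (remodeling, Ets2-expressing). For Gapdh it was 2.27, 2.45, 1.80 and 1.61 on these arrays in that order. Both controls were larger on the tumor arrays than on the remodeling arrays. In remodeling macrophages both were larger with the label Ets2-deficient, while they ordered the tumor arrays oppositely. The part of RNA length in the differences of the members was not tested.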

How the data were processed

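RNA of YFP-sorted macrophages was amplified, labelled with biotin and hybridised, per the labels' protocols. The authors deposited log2 expression values per probe set, made with GCOS and RMA per the submitters' processing notes, whose versions and roles are not given in the sources used here. No genome build is named in the sources used here. The values were used as deposited.

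Gene names came from the array annotation. Of 22690 probe sets, 64 were controls, 20380 named 1 gene, 691 several and 1555 none. Values identical on 2 or more arrays occurred in 12.6% of single-gene probe sets and in 2 of the 52 probe sets of members. Promoter windows were matched by symbol, and protein sequences were not used here.

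The members and lists were chosen with earlier results of these data known. Named genes follow a rule: every member called at 2-fold in at least 1 pairwise comparison and the 5 with the largest difference in each (12 in all) have values per array. Ets2, receptors, kinases and called pathway genes are also named, and other genes were named after their values were seen.

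Each comparison is a log2 difference, with no test. The alternatives were no filter, a filter at the 75th percentile, 1.5-fold, median centring, quantile normalization, centring on hybridization controls and the mean of all probe sets. Taking each probe set on its own, genes of high mean as background and the scaling of the count of highest arrays were added after seeing the data. The code was run on simulated arrays with differences set well above 2-fold and little noise. This checks the code and does not measure how reliable the calls are. Python 3.11.15, numpy 2.4.6, pandas 2.3.3 and matplotlib 3.10.9 were used.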

Additional observations from a re-analysis of the deposited data

Results flagged for a closer look

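The Ets2 difference lay in opposite directions in tumor and remodeling macrophages, at least 1 log2 apart, for 2 of 32 members and 4 of 59 other interferon pathway genes bright enough to count. Together these are 6.59% of the genes counted in both lists, against 8.62% of all 7473 counted genes, so their number is not above the background. With 1 array per group the difference between settings was not tested. The tumor difference minus the remodeling difference was -1.53 for Ifit2 (-0.64 and 0.89 in tumor and remodeling macrophages) and -1.63 for Ifit3 (-0.72 and 0.91). It was -2.23 for Ifnz (-0.58 and 1.66), -1.05 for Ddx60 (-0.39 and 0.66) and -1.29 for Aim2 (-0.31 and 0.98), which encodes a sensor of cytosolic DNA. Ifitm1 ran the other way at 2.91 (2.03 and -0.89).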

How the results depend on the processing

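No paired analysis was possible because each group has 1 array, and no array could be left out of a group. The settings below give values, not tests. At 1.5-fold, members called higher and lower numbered 1 and 6 in the tumor Ets2 comparison, 4 and 2 in the remodeling one, 1 and 0 in tumor over remodeling with the label Ets2-deficient and 8 and 2 with Ets2-expressing, and 2 and 11 of 32 for the difference of the 2 Ets2 differences at that size, where 1219 and 879 of 7473 counted genes were. With the 75th percentile filter, which leaves fewer members to count (17 or 18), 0 were higher and 1 lower in tumor over remodeling on the Ets2-expressing arrays, and 0 lower in the difference of differences. Median centring called 1 lower in tumor (Dhx58), as did quantile normalization, and 2 higher in remodeling macrophages (Ifit2 and Ifit3), as did the hybridization controls. After median centring and hybridization control centring, the member median was 0.38 and 0.39 in the remodeling Ets2 comparison and -0.35 and -0.25 in tumor over remodeling with the label Ets2-deficient, where the median of all genes moved to -0.31 and -0.21. The difference of differences then held 7 and 5 lower members and 0 higher members, with a median of -0.60 after median centring. Members highest on the tumor Ets2-expressing array numbered 13 and 10, a count chosen after seeing the data. With the mean of all probe sets, 1 was lower in tumor over remodeling on the Ets2-expressing arrays. Relative to all genes, the member median was -0.30 to -0.22 in the tumor Ets2 comparison and 0.12 to 0.18 in the remodeling one. Its direction held under quantile normalization, the mean of all probe sets and genes of high mean as background. The filters, the 1.5-fold cut and both centrings cannot change this value. Small differences changed sign in at least 1 setting for Irf1, Dhx58 and Eif2ak2 in the remodeling Ets2 comparison, Irf8 in the tumor one, and Irf8 and Dhx58 in tumor over remodeling with the label Ets2-deficient. Of the single-member values, 58 moved and 278 did not. Many of these could not move, so the count is no measure of robustness. No filter, the 75th percentile filter and the 1.5-fold cut leave a gene's difference unchanged, as does the probe set mean for genes with 1 probe set.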
